A study of Mus musculus with 18 samples.

Results

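The infarct core of Trem2-knockout mice was set against the peri-infarct zone of the same genotype, the rim of tissue around a stroke that has not died. The comparison uses 6 of the 18 libraries of the series, the 3 of knockout core and the 3 of knockout peri-infarct tissue, chosen by their sample labels. Stroke was made by photothrombosis, in which a light-activated dye clots the vessels of a lit patch of cortex, here with 50 mg/kg Rose Bengal and a 125 mW laser of 525 nm aimed at a 3 mm field. Each group of the series, knockout or wild type, consisted of males aged 8 to 10 weeks on a C57Bl6 background, and their brains were taken on day 7 and divided after TTC staining, which leaves dead tissue pale. The groups used below were knockout core, knockout peri-infarct zone and knockout contralateral site, with wild-type core, wild-type peri-infarct zone and wild-type contralateral site for the test of genotype, 3 libraries each. The labels give neither the allele of the knockout nor the animal behind a library. A p-value therefore measures the spread between these libraries, which may be partly technical.

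A cortical infarct at this age is being cleared and walled off. Monocyte-derived macrophages and microglia take up dead cells, myelin and lipid, perivascular and meningeal fibroblasts lay down a collagen scar in the dead tissue, and reactive astrocytes line its edge, while the peri-infarct zone keeps living neurons. Trem2 is a receptor for lipids and cell debris on microglia and macrophages that signals through the adaptor Tyrobp, and in plaque and demyelination models it is needed for the full switch of microglia to a disease-associated state.

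The 9 knockout libraries held between 16993978 and 17611560 counts. Core and peri-infarct libraries detected similar numbers of genes, 16986 to 17069 and 17028 to 17109 (2-sided exact permutation test, p = 0.6). The 10 most abundant genes took 4.63% to 5.38% of the counts of the core libraries, against 3.69% to 3.80% in the peri-infarct libraries (p = 0.1, the smallest that an exact test of 3 against 3 can give). Levels are given below as CPM, the counts of a gene scaled to a common library size, and differences as log2 fold changes of core over peri-infarct ± SE, from edgeR's quasi-likelihood test on the 9 knockout libraries with 3 per group. A gene is said to have risen or fallen in the core where its Benjamini-Hochberg adjusted p, taken over all 15143 genes tested, lay under 0.05.

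The genotype labels were checked on Trem2, which held 5.78, 8.58 and 5.62 CPM in the knockout core libraries, 2.49, 3.23 and 4.03 CPM in the knockout peri-infarct libraries and 0.706, 0.927 and 0.347 CPM in the knockout contralateral libraries. The wild-type libraries held 183, 212 and 758 CPM in the core, 129.9, 89.4 and 123 CPM in the peri-infarct zone and 28.6, 20.5 and 27.0 CPM on the contralateral side, so that no knockout library reached the lowest wild-type one. The remaining reads of the knockout were higher in the core by 1.02 ± 0.29 (adjusted p = 0.0173). This call was lost without core replicate 2 (0.80, adjusted p = 0.0713) and without peri-infarct replicate 1 (0.86, adjusted p = 0.0731), and on log2(TPM + 0.1) (0.87, adjusted p = 0.0528).

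In the knockout, core and rim differed in 6120 genes, 40.4% of those tested, of which 3335 rose in the core (22%) and 2785 fell (18.4%). A log2 fold change of at least 1 in size was seen in more genes that rose (1165) than fell (319). At a size of at least 3 the numbers were closer, with 38 that rose and 28 that fell. The 3 core libraries lay wholly above or wholly below the 3 peri-infarct libraries in 7888 genes (52.1%), above in 4531 (29.9%) and below in 3357 (22.2%). The split between rises and falls depended on the scaling: of the calls, 54.5% were rises on TMM-scaled counts, against 36.2% to 38.3% on the authors' TPM, where the median of all genes lay at -0.13 to -0.07 on the log2 scale rather than at -0.004. Relative to the TMM-scaled test, 0 genes were called in the opposite direction on TPM.

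**Figure D1:**
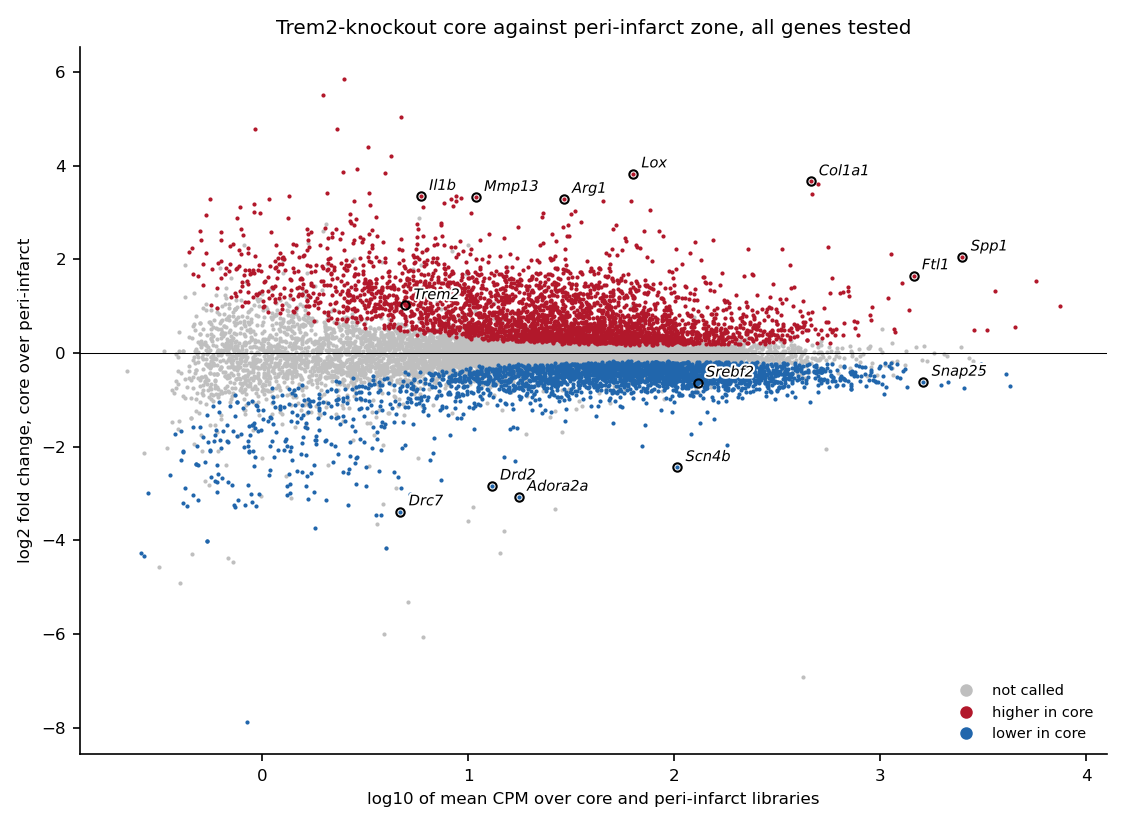
Each point is 1 of the 15143 genes tested, with the log10 of its mean CPM over the 6 core and peri-infarct libraries on the x axis and the log2 fold change of core over peri-infarct on the y axis. Genes that rose in the core (3335, red) reach larger changes at high levels than genes that fell (2785, blue), and grey points passed no test.

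Of the 10 genes with the largest rises in the core, the 9 given here build or cut the extracellular matrix or are known from myeloid cells. They were taken by a rule, the 10 largest changes in each direction among genes that were called, had a mean log2 CPM of at least 1 (with a prior count of 2) and did not overlap between the groups. Lox, the enzyme that cross-links collagen and elastin, held 84.6, 145 and 125 CPM in the core, against 5.91, 5.04 and 13.6 CPM in the peri-infarct zone, a difference of 3.83 ± 0.39 on the log2 scale or 14.2-fold (adjusted p = 0.000276). Col1a1, a chain of the main scar collagen, held 526, 1129 and 906 CPM in the core, against 45.6, 47.9 and 106 CPM in the peri-infarct zone (3.66 ± 0.46, adjusted p = 0.000606). Core replicate 1 was the lowest core library for both genes and peri-infarct replicate 3 the highest peri-infarct library, and they stayed several-fold apart. The contralateral libraries held 11.9, 5.97 and 13.7 CPM of Col1a1.

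Col3a1, the chain of the reticular collagen that is laid down early in wounds, rose by 3.62 ± 0.42 and Col1a2, the partner chain of Col1a1, by 3.40 ± 0.42. The macrophage and neutrophil genes in this set were as separate between the groups. Arg1, an arginase of wound macrophages, held 51.4, 58.2 and 49.2 CPM in the core, against 3.48, 1.99 and 10.6 CPM in the peri-infarct zone (3.29 ± 0.47, adjusted p = 0.00111). The cytokine gene Il1b held 10.8, 12.5 and 8.97 CPM in the core, against 0.637, 0.762 and 1.70 CPM in the peri-infarct zone (3.35 ± 0.32). S100a9, a subunit of the neutrophil protein calprotectin, held 11.2, 26.1 and 13.4 CPM in the core, against 0.406, 1.58 and 3.01 CPM in the peri-infarct zone (3.32 ± 0.60). For these 3 genes peri-infarct replicate 3 was again the highest of its group and still below each core library.

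Among the 10 largest falls were genes of motile cilia and genes known from striatal neurons. The cilium genes were Drc7 (-3.39 ± 1.02), Ak7 (-3.01 ± 0.54), Ttc21a (-2.88 ± 0.44), Dnah6 (-2.70 ± 0.65), Cfap65 (-2.65 ± 0.44) and Dnah11 (-2.53 ± 0.44), which code for parts of the axoneme or for its assembly. Cdhr4, a cadherin-related gene, fell by 2.51 ± 0.38 on the log2 scale. Adora2a, the adenosine receptor of striatal indirect-pathway neurons, held 8.48, 1.39 and 1.42 CPM in the core, against 24.5, 35.7 and 34.3 CPM in the peri-infarct zone (-3.07 ± 0.71, adjusted p = 0.0103), and Drd2, the dopamine receptor of the same cells, 4.47, 1.74 and 3.46 CPM in the core, against 22.6, 21.8 and 24.1 CPM in the peri-infarct zone (-2.84 ± 0.45). Scn4b, a sodium channel subunit that is abundant in striatum, held 41.1, 22.0 and 34.5 CPM in the core, against 179.6, 157 and 188 CPM in the peri-infarct zone (-2.44 ± 0.24, adjusted p = 0.000159). Adora2a missed the threshold without core replicate 2 (-2.67, adjusted p = 0.0566). Drc7 missed it without core replicate 1, 2 or 3 (adjusted p = 0.0869, 0.129 and 0.0945) and without peri-infarct replicate 3 (0.0657). Drc7 also missed it with no filter on low counts (adjusted p = 0.053) and by the limma-voom test (adjusted p = 0.0709).

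**Figure D2:**
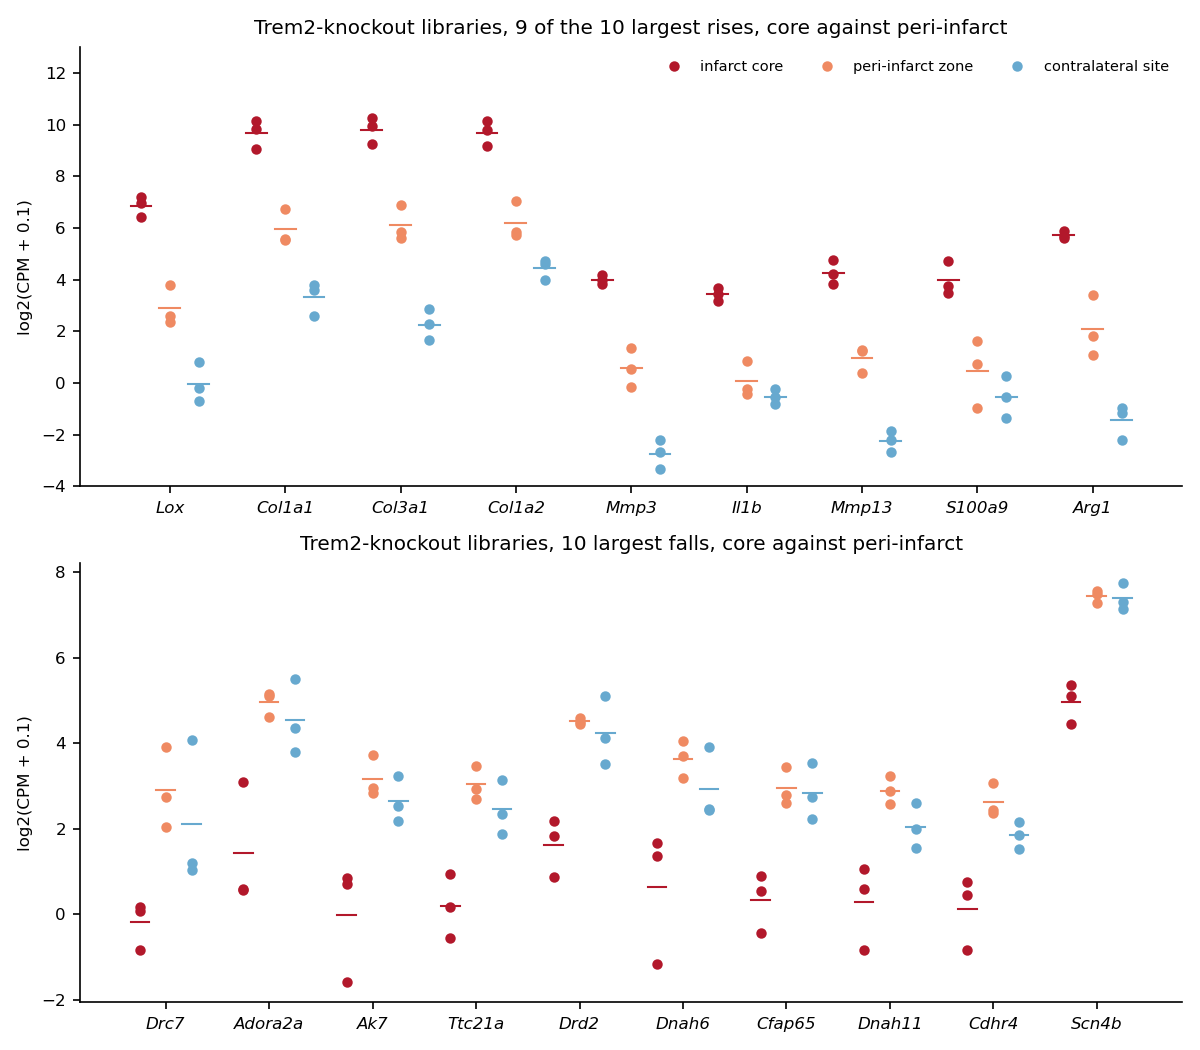
Points are single knockout libraries and bars are group means, on a scale of log2(CPM + 0.1), for 9 of the 10 largest rises (top) and the 10 largest falls (bottom), with infarct core, peri-infarct zone and contralateral site side by side. The core libraries lie apart from the peri-infarct libraries for each gene, and for the falls the contralateral libraries lie above each core library.

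Genes were then read in 39 lists of pathways and cell types. For each list the text gives how many tested members rose or fell, to be set against 22% and 18.4% of all genes tested, and the median log2 fold change, to be set against -0.004 for all genes. These are descriptions of the lists, with no test of a list as a whole. The single falls among fibrillar collagens, basement membrane genes and pericyte markers and the single rise among excitatory markers were lost in at least 1 alternative fit, and 1 of the 2 falls among Adam and Adamts proteases and among complement genes was too. Members named beyond the largest changes and the 3 smallest p-values of a list were chosen after their values were seen. In bulk tissue, fewer cells of a type and less RNA per cell cannot be told apart.

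**Figure D3:**
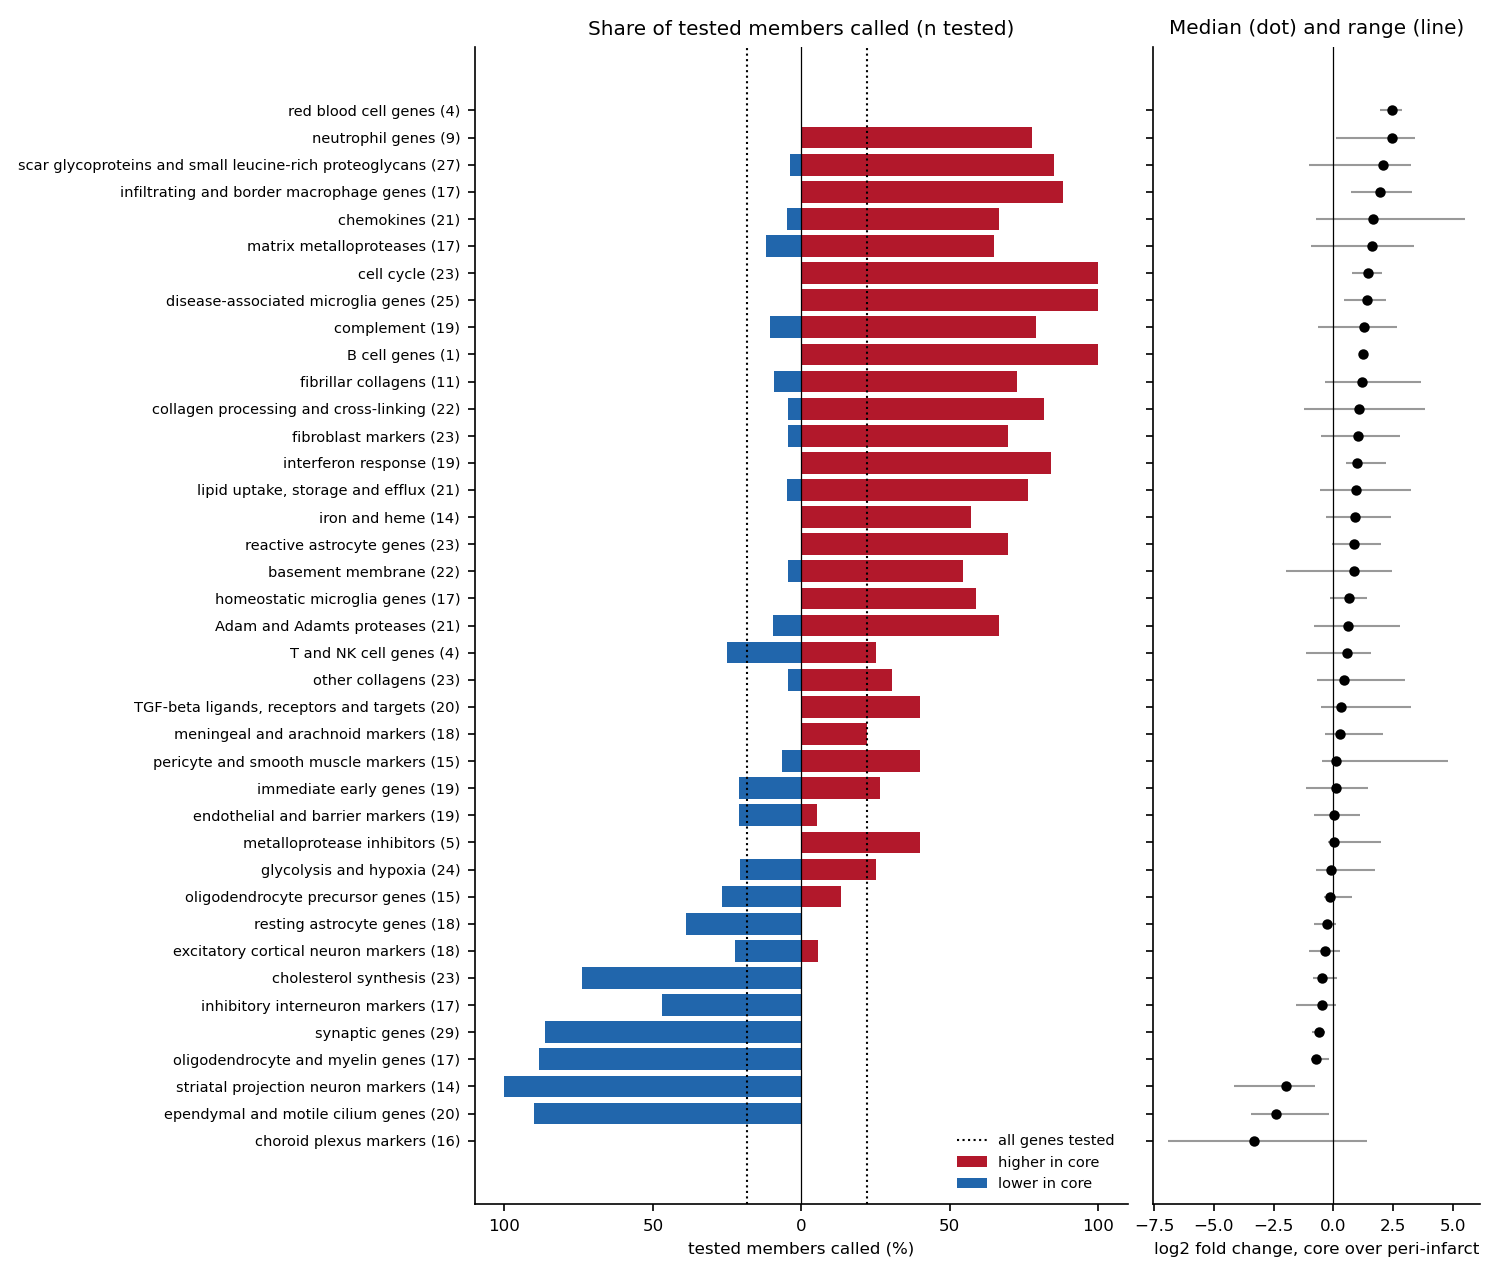
On the left, bars give for each list the percent of its tested members (number in brackets) that rose (red, to the right) or fell (blue, to the left) in the core, with dotted lines at the 22% and 18.4% of all genes tested. On the right, points are the median and lines the range of the members' log2 fold changes of core over peri-infarct, from 2.46 for the red blood cell genes, of which none passed the test, to -3.31 for the choroid plexus markers.

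The collagen scar was one of the plainest differences. Of 11 fibrillar collagen genes 8 rose and 1 fell, with a median of 1.20, and their summed level was 1979 to 3868 CPM in the core, against 267 to 464 CPM in the peri-infarct zone. Col5a2 and Col5a1 encode the minor chains that start a collagen fibril. Col5a2 held 98.2, 174 and 139 CPM in the core, against 16.3, 12.1 and 20.4 CPM in the peri-infarct zone (3.06 ± 0.23, adjusted p = 9.39e-05), and Col5a1 held 81.4, 134 and 111 CPM in the core, against 20.2, 24.9 and 20.4 CPM in the peri-infarct zone (2.30 ± 0.20). The range over the family ran from -0.35 to 3.66. Of 22 basement membrane genes 12 rose and 1 fell (median 0.84), among them Col4a1, the common network collagen, at 222, 316 and 249 CPM in the core, against 85.5, 73.8 and 77.4 CPM in the peri-infarct zone (1.72 ± 0.12, adjusted p = 9.2e-05). Lama4, a laminin chain of vessels, rose by 1.45 ± 0.13 and Col18a1, the precursor of endostatin, by 2.45 ± 0.24. Of 23 tested genes of the other collagens 7 rose and 1 fell (median 0.45), led by the anchoring fibril collagen Col7a1 (2.98 ± 0.26), Col12a1 (2.50 ± 0.30) and Col14a1 (2.51 ± 0.36), which bind fibril surfaces, and the microfibril chain Col6a3 (2.34 ± 0.33).

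The enzymes that fold, hydroxylate, trim and cross-link collagen moved with it. Of 22 such genes 18 rose and 1 fell (median 1.05). Loxl2, a relative of Lox, held 46.6, 68.2 and 62.4 CPM in the core, against 7.13, 4.81 and 9.31 CPM in the peri-infarct zone (3.04 ± 0.23, adjusted p = 9.39e-05). The procollagen peptidase Adamts14 rose by 2.78 ± 0.23, the lysyl hydroxylase Plod1 by 0.98 ± 0.09 and the collagen chaperone Serpinh1 by 2.13 ± 0.21. Of 27 scar glycoproteins and small leucine-rich proteoglycans 23 rose and 1 fell, with a median of 2.09. Fbln2, a fibulin of elastic fibres, held 31.3, 51.2 and 49.3 CPM in the core, against 7.01, 6.68 and 8.46 CPM in the peri-infarct zone (2.55 ± 0.18, adjusted p = 9.2e-05). Tgfbi, an adhesion protein induced by TGF-beta, rose by 2.26 ± 0.16, Bgn, the proteoglycan biglycan, by 2.38 ± 0.21, periostin (Postn) by 2.99 ± 0.42 and elastin (Eln) by 3.24 ± 0.43. The fall was in Prelp, a proteoglycan of basement membranes, with 17.9, 18.3 and 18.7 CPM in the core, against 37.8, 30.4 and 42.3 CPM in the peri-infarct zone (-1.03 ± 0.15).

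Fibroblast markers were higher too, while pericyte and smooth muscle markers were divided. Of 26 fibroblast markers 23 were tested, and 16 rose and 1 fell (median 1.02). Lum, the proteoglycan lumican, held 46.5, 77.4 and 62.2 CPM in the core, against 5.85, 8.03 and 12.4 CPM in the peri-infarct zone (2.80 ± 0.26, adjusted p = 0.000124), and the mesenchymal transcription factors Hic1 (2.12 ± 0.19) and Prrx1 (1.24 ± 0.14) rose, as did the receptor Pdgfrb (0.82 ± 0.16). Thy1, the listed marker that fell (-0.54 ± 0.07), is also abundant in neurons. Of 15 pericyte and smooth muscle markers 6 rose and 1 fell. Most of those that rose encode contractile proteins. Acta2, smooth muscle actin, held 40.8, 62.9 and 53.8 CPM in the core, against 7.53, 9.03 and 10.9 CPM in the peri-infarct zone (2.50 ± 0.17, adjusted p = 9.2e-05), with Tagln at 2.22 ± 0.19 and Actg2 at 4.78 ± 0.44. The list's median was 0.12 and ranged from -0.11 to 0.27 over 21 alternative fits, in 5 of which it was negative.

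Endothelial and barrier markers did not share the direction. Of 19 markers 1 rose and 4 fell, a share of falls close to that of all genes. The median of 0.01 changed sign in 9 of 21 alternative fits. Cdh5, the cadherin of endothelial junctions, held 29.1, 39.2 and 30.0 CPM in the core, against 15.6, 15.3 and 14.7 CPM in the peri-infarct zone (1.09 ± 0.17, adjusted p = 0.000962). The transporters Slco1c1, for thyroid hormone, and Mfsd2a, for lysophospholipids, fell by 0.81 ± 0.18 and 0.79 ± 0.20 on the log2 scale. The falls numbered 2 without core replicate 2 and without peri-infarct replicate 1. Summed levels of the list overlapped, with 464 to 536 CPM in the core and 512 to 612 CPM in the peri-infarct zone. Of 18 meningeal and arachnoid markers 4 rose and 0 fell (median 0.26), a share of rises (22.2%) close to that of all genes. The 4 were Foxc1, a transcription factor of the meninges (1.95 ± 0.25), the ligand Bmp5 (1.32 ± 0.33), the retinoic acid binder Crabp2 and Spp1, which macrophages also make (2.06 ± 0.46). The transporters of arachnoid cells on that list did not pass the test. Summed levels of the meningeal list were 4317 to 5337 CPM in the core, against 1321 to 2316 CPM in the peri-infarct zone, of which Spp1 made 3633, 4264 and 4286 CPM in the core, against 624, 867 and 1408 CPM in the peri-infarct zone. The part of meninges in the collagen and fibroblast results was not tested.

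Matrix metalloproteases, which cut collagen and other matrix proteins, are shown with their promoters, since 2 of the 10 largest rises belong to this family and carry the same short element. AP-1, the Fos and Jun dimer that is induced by cytokines and injury, binds TGANTCA. On both strands of the RefSeq promoters of build GRCm38.p6, from 250 bases before to 50 after the start, these letters were found in 5 of the 13 metalloprotease genes with a promoter in the table (38.5%), against 8.97% of 27025 genes. The promoters of Mmp13 (chr9:7272264-7272563, plus strand) and Mmp3 (chr9:7445572-7445871, plus strand) hold 1 match each, in capitals, whose first base lies 35 and 46 bases before the start. The match is a description and not evidence of binding.
Mmp13: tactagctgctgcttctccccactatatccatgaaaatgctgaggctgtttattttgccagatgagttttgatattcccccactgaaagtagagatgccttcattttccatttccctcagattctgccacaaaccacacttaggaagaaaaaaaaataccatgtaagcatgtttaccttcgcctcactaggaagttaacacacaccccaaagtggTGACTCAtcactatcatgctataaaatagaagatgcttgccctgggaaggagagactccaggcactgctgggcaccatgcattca
Mmp3: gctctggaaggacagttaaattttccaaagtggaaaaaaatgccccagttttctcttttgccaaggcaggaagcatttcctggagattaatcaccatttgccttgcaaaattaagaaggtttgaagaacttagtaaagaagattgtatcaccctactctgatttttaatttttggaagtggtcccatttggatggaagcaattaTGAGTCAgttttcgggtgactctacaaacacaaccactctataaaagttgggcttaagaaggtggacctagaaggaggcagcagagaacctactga

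Of 17 tested metalloproteases 11 rose and 2 fell, with a median of 1.62 and a range from -0.92 to 3.36. The collagenase Mmp13 held 14.2, 27.1 and 18.3 CPM in the core, against 1.22, 2.29 and 2.33 CPM in the peri-infarct zone and 0.0588, 0.116 and 0.174 CPM on the contralateral side (3.33 ± 0.30, adjusted p = 0.000105). The stromelysin Mmp3 held 14.0, 18.3 and 15.9 CPM in the core, against 0.811, 1.35 and 2.44 CPM in the peri-infarct zone (3.36 ± 0.33). The fitted folds were 10.0 and 10.3, and no core value came near a peri-infarct value. Mmp19 rose by 1.62 ± 0.16 and the macrophage elastase Mmp12 by 2.91 ± 0.32, while the membrane-bound, neuronal Mmp24 fell (-0.54 ± 0.09). Of the 5 metalloprotease inhibitors, Timp1 rose by 1.98 ± 0.30 and Timp2 by 0.66 ± 0.13. Timp3 held 129, 153 and 160.5 CPM in the core, against 169.7, 154 and 188 CPM in the peri-infarct zone, overlapping values that missed the threshold (-0.23 ± 0.09, adjusted p = 0.0673) but passed it without peri-infarct replicate 2 (-0.29, adjusted p = 0.0366) and on TPM (-0.36). The inhibitors' median of 0.01 had no stable sign.

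Among 21 Adam and Adamts proteases 14 rose and 2 fell (median 0.61). Adam8, a leukocyte sheddase, held 92.3, 123 and 81.3 CPM in the core, against 14.3, 17.1 and 24.1 CPM in the peri-infarct zone (2.40 ± 0.20, adjusted p = 0.000105), and the stromal Adam12 and Adamts12 rose by 2.50 ± 0.24 and 2.78 ± 0.32. Of 20 TGF-beta ligands, receptors and targets 8 rose and 0 fell (median 0.31). The ligand Tgfb1 held 53.1, 70.9 and 42.9 CPM in the core, against 20.4, 24.3 and 22.9 CPM in the peri-infarct zone (1.29 ± 0.22), and its receptor Tgfbr2 176, 214 and 146 CPM in the core, against 74.1, 80.7 and 87.5 CPM in the peri-infarct zone (1.13 ± 0.15). The latent binding protein Ltbp2 rose by 3.25 ± 0.31.

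Myeloid genes rose across their states. The 25 disease-associated microglia genes, many of which Trem2 signalling is known to drive in plaque models, rose in 25 of 25 cases (median 1.40, range 0.43 to 2.22). The lysosomal protease Ctsl held 979, 1007 and 848 CPM in the core, against 341, 373 and 414 CPM in the peri-infarct zone (1.31 ± 0.10, adjusted p = 9.2e-05), and the tetraspanin Cd63 and the chemokine Ccl6 rose by 1.16 ± 0.09 and 1.83 ± 0.15. Apoe, the lipid carrier, rose by 1.01 ± 0.14 and the lectin Lgals3 by 2.22 ± 0.32. Of 17 homeostatic microglia genes 10 rose and 0 fell, with a smaller median of 0.66. Fcrls, an Fc receptor-like marker of microglia, held 585, 602 and 421 CPM in the core, against 195, 214 and 195 CPM in the peri-infarct zone (1.40 ± 0.20, adjusted p = 0.000705), with the purine receptor P2ry13 at 0.86 ± 0.14 and Tmem119 at 0.57 ± 0.13. P2ry12, the receptor by which resting microglia sense nucleotides, overlapped with 128, 108 and 77.5 CPM in the core and 83.1, 90.8 and 70.3 CPM in the peri-infarct zone (0.35 ± 0.18, adjusted p = 0.147), and passed without core replicate 3 (0.54, adjusted p = 0.00875).

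Macrophage and neutrophil markers of the blood and the brain's borders had higher medians. Of 17 tested infiltrating and border macrophage genes 15 rose and 0 fell (median 1.94). Pf4, a chemokine of border macrophages and platelets, held 17.4, 22.5 and 15.0 CPM in the core, against 1.27, 1.99 and 3.58 CPM in the peri-infarct zone (2.98 ± 0.32, adjusted p = 0.000159). The inhibitory receptor Lilrb4a rose by 2.14 ± 0.27 and fibronectin (Fn1), which fibroblasts also make, by 2.27 ± 0.27. Of 15 neutrophil genes 9 were tested, and 7 rose and 0 fell (median 2.45), with the chemokine receptor Cxcr2 at 5.84, 7.82 and 4.60 CPM in the core, against 0.521, 0.352 and 0.795 CPM in the peri-infarct zone (3.42 ± 0.32, adjusted p = 0.00011). The collagenase Mmp8 rose by 2.17 ± 0.25 and the gelatinase Mmp9 by 2.45 ± 0.36. Ly6g, Ltf, Camp, Retnlg, Elane and Mpo did not pass the filter on low counts. The list's summed level was 142 to 216 CPM in the core, against 66.5 to 70.3 CPM in the peri-infarct zone.

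Lymphocyte genes were near the limit of detection. Of 19 T and NK cell genes 4 were tested, with Il7r higher (3.78, 8.87 and 3.46 CPM in the core, against 2.09, 2.29 and 0.966 CPM in the peri-infarct zone, 1.57 ± 0.42, adjusted p = 0.0136) and Cd4 lower (-1.16 ± 0.36, adjusted p = 0.0276). The receptor genes Cd3d, Cd3e, Cd3g and Trac did not pass the filter. Summed levels overlapped, with 9.60 to 19.6 CPM in the core and 10.5 to 14.3 CPM in the peri-infarct zone. Il7r lost its call without core replicate 2 (1.01, adjusted p = 0.0518). Cd4 lost it without core replicate 2 or 3 and without peri-infarct replicate 1, 2 or 3 (-0.93 to -1.24, adjusted p = 0.0545 to 0.0808). Of 8 B cell genes Cd79b was tested and rose (1.25 ± 0.37), a call lost without core replicate 1 (0.94), without peri-infarct replicate 1 (1.11) and without peri-infarct replicate 3 (1.22). The sums rest on few counts, and their part in other results was not tested.

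Most listed genes of lipid handling and complement rose, and so did more than 1 in 2 of the iron and heme genes. Of 21 genes of lipid uptake, storage and efflux 16 rose and 1 fell (median 0.92). Plin2, the coat protein of lipid droplets, held 522, 638 and 495 CPM in the core, against 92.3, 107 and 149.8 CPM in the peri-infarct zone and 11.9, 13.1 and 8.91 CPM on the contralateral side (2.23 ± 0.19, adjusted p = 0.00011). The lysosomal lipase Lipa rose by 1.63 ± 0.17, the lysosomal cholesterol carrier Npc2 by 0.94 ± 0.11 and the scavenger receptor Cd36 by 3.24 ± 0.43. Of 14 iron and heme genes 8 rose and 0 fell (median 0.91), with the heme oxygenase Hmox1 at 236, 354 and 189.5 CPM in the core, against 35.9, 41.9 and 66.3 CPM in the peri-infarct zone (2.42 ± 0.28), the ferritin light chain Ftl1 at 1.65 ± 0.16 and the phagosomal metal transporter Slc11a1 at 1.63 ± 0.25. Of 19 complement genes 15 rose and 2 fell (median 1.26). C1qa, a chain of the complex that starts the classical pathway, held 1052, 1112 and 830 CPM in the core, against 366, 418 and 406 CPM in the peri-infarct zone (1.31 ± 0.14, adjusted p = 0.000152), and the integrin chain Itgb2 and the receptor C5ar1 rose by 1.45 ± 0.15 and 2.00 ± 0.21. C3, the central component, went the other way, with 34.0, 26.4 and 34.6 CPM in the core, against 49.1, 37.8 and 47.3 CPM in the peri-infarct zone (-0.51 ± 0.12, adjusted p = 0.00769), a call lost when the 8 wild-type libraries other than core replicate 3 joined the fit (-0.49, adjusted p = 0.294).

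Of 21 tested chemokines 14 rose and 1 fell (median 1.65). Ccl2, which draws monocytes, held 10.5, 10.4 and 12.5 CPM in the core, against 2.55, 2.35 and 3.63 CPM in the peri-infarct zone (1.95 ± 0.20, adjusted p = 0.00012), and Ccl9 rose by 1.70 ± 0.16. The largest changes were in ligands of the neutrophil receptor Cxcr2. Cxcl2 held 8.88, 7.82 and 10.9 CPM in the core, against 0.0579, 0.117 and 0.625 CPM in the peri-infarct zone (5.04 ± 0.51), and Cxcl3 4.18, 4.46 and 2.95 CPM in the core, against 0, 0.0586 and 0.170 CPM in the peri-infarct zone (5.51 ± 0.56). Those peri-infarct values rest on few counts, so the sizes of these changes are loose. Cx3cl1, the ligand that neurons hold out to microglia, fell by 0.72 ± 0.10 on the log2 scale.

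The interferon response is shown with the promoter of Oas1a, 1 of its 3 members with the smallest p. Interferon-stimulated genes are switched on by ISGF3 and Irf factors, which bind repeats of GAAA. The motif searched was GAAA, any 2 bases and GAAA again. It was found on either strand in 8 of 15 listed genes with a promoter in the table (53.3%), against 3.99% of 27025 genes. In the promoter of Oas1a, a sensor of double-stranded RNA (chr5:120907476-120907775, minus strand, GRCm38.p6), the capitals mark 2 overlapping matches that begin 20 and 14 bases before the start.
Oas1a: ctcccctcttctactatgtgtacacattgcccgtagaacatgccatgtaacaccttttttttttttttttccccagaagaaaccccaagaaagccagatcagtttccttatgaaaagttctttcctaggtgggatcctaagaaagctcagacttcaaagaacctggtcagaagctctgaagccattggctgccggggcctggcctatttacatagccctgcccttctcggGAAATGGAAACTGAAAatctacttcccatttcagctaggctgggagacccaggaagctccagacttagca

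Of 19 tested interferon response genes 16 rose and 0 fell (median 0.99, range 0.51 to 2.21). Over 21 alternative fits, the fit of all 18 libraries aside, 12 to 19 rose. Each of the 19 tested genes had its 3 core libraries above its 3 peri-infarct libraries, against 29.9% of all genes tested. Oas1a held 41.7, 44.0 and 29.7 CPM in the core, against 12.7, 17.2 and 15.4 CPM in the peri-infarct zone and 2.65, 3.30 and 3.30 CPM on the contralateral side (1.33 ± 0.17, adjusted p = 0.000285). The nucleic acid sensor Zbp1 rose by 1.64 ± 0.20, the immunoproteasome subunit Psmb8 by 1.26 ± 0.16 and the membrane protein Ifitm1 by 2.21 ± 0.30. Core replicate 3 was the lowest core library for Oas1a, Zbp1 and Psmb8. The Oas genes are near copies of each other, and the authors' counting may have split reads between them.

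Cell division genes rose as a block. Of 23 on the list 23 rose (median 1.46, range 0.80 to 2.02). Top2a, the topoisomerase that untangles replicated DNA, held 72.1, 73.8 and 80.8 CPM in the core, against 22.3, 23.9 and 30.4 CPM in the peri-infarct zone and 3.41, 4.52 and 5.96 CPM on the contralateral side (1.55 ± 0.15, adjusted p = 0.000115). The kinetochore motor Cenpe rose by 1.39 ± 0.12, the cyclin Ccna2 by 1.50 ± 0.15 and the proliferation marker Mki67 by 1.53 ± 0.16. The core libraries were close to each other for these genes, and peri-infarct replicate 3 was the highest of its group. Cell cycle promoters are known for CCAAT boxes, bound by NF-Y, and for the cell cycle homology region TTTGAA. The letters CCAAT were found on either strand in 17 of 20 listed promoters (85%), against 41.1% of 27025 genes, and TTTGAA in 10 of 20 (50%), against 20.2%. The Top2a promoter (chr11:99024140-99024439, minus strand, GRCm38.p6) is shown for its density of both, 8 matches in all, in capitals and with ATTGG and TTCAAA as the reverse strand's form.
Top2a: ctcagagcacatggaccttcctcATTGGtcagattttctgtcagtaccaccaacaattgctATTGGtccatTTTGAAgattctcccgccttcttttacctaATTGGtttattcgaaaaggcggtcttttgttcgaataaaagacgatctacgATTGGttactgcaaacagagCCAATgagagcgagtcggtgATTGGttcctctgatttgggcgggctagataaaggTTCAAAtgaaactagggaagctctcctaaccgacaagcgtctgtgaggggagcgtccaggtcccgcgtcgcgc

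Cholesterol synthesis went the other way. Of 23 genes 17 fell and 0 rose (median -0.48). For 20 of the 23 the 3 core libraries lay below the 3 peri-infarct libraries, against 22.2% of all genes tested. Srebf2, the transcription factor of the pathway, held 99.7, 101 and 108 CPM in the core, against 159.9, 160.3 and 154 CPM in the peri-infarct zone and 204, 208 and 187 CPM on the contralateral side (-0.64 ± 0.07, adjusted p = 0.000124). The epoxidase Sqle held 25.5, 28.4 and 30.1 CPM in the core, against 43.8, 41.9 and 48.5 CPM in the peri-infarct zone (-0.69 ± 0.09). NF-Y also assists SREBP at these genes, and CCAAT was found in 16 of 16 listed promoters (100%), against the 41.1% of all. The Srebf2 promoter itself (chr15:82147019-82147318, plus strand, GRCm38.p6) holds 1 match on the reverse strand, 135 bases before the start, shown in capitals.
Srebf2: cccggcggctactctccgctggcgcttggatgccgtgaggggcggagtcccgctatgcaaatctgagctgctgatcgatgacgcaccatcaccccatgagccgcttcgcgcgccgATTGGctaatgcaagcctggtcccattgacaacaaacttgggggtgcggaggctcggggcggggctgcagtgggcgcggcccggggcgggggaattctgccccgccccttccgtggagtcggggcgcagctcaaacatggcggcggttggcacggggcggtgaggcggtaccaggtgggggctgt

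Glycolysis and hypoxia genes were split, with 6 of 24 higher and 5 lower (median -0.08), shares close to those of all genes. Hif1a, the oxygen-sensitive transcription factor, held 222, 264 and 225 CPM in the core, against 119.9, 116 and 132 CPM in the peri-infarct zone (0.93 ± 0.08, adjusted p = 1e-04). The lactate exporter Slc16a3 rose by 1.72 ± 0.20 and the hexokinase Hk2 by 0.97 ± 0.13, while Ndrg1, a gene induced by hypoxia, fell by 0.74 ± 0.12 on the log2 scale. On TPM 10 or 11 of the 24 fell.

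Astrocyte genes differed by state. Of 23 reactive astrocyte genes 16 rose and 0 fell (median 0.86), several of which other cells also express. Cd44, the hyaluronan receptor, held 65.8, 80.4 and 64.5 CPM in the core, against 29.8, 34.5 and 31.1 CPM in the peri-infarct zone (1.12 ± 0.10, adjusted p = 0.000105), and the membrane protein Emp1 and vimentin (Vim) rose by 1.89 ± 0.13 and 0.96 ± 0.09. Gfap, the astrocyte's own intermediate filament, held 4439, 3024 and 4290 CPM in the core, against 2690, 2920 and 2596 CPM in the peri-infarct zone. Its difference of 0.50 ± 0.14 (adjusted p = 0.0169) was lost without core replicate 1 (0.40, adjusted p = 0.0517), without peri-infarct replicate 1 (0.49, adjusted p = 0.0546) and without peri-infarct replicate 3 (0.46, adjusted p = 0.0576), and on TPM (0.35). Of 18 resting astrocyte genes 7 fell and 0 rose (median -0.27), with the amino acid transporter Slc7a10 at 15.2, 19.8 and 21.2 CPM in the core, against 32.6, 29.6 and 35.6 CPM in the peri-infarct zone (-0.82 ± 0.12) and the growth factor receptor Fgfr3 at -0.48 ± 0.08. On TPM 14 of the 18 fell.

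Myelin genes were lower in the core. Of 17 oligodendrocyte and myelin genes 15 fell and 0 rose (median -0.71). Over 21 alternative fits, the fit of all 18 libraries aside, 10 to 16 fell. Fa2h, which hydroxylates the fatty acids of myelin lipids, held 29.1, 20.5 and 31.2 CPM in the core, against 57.0, 44.2 and 51.5 CPM in the peri-infarct zone (-0.94 ± 0.16, adjusted p = 0.00128), and Mag, a myelin-associated adhesion protein, 159, 112 and 171 CPM in the core, against 308, 224 and 267 CPM in the peri-infarct zone (-0.87 ± 0.17). The gap junction gene Gjb1 fell by 0.87 ± 0.17 and myelin basic protein (Mbp) by 0.70 ± 0.16 on the log2 scale. Core replicate 2 was the lowest of the 6 core and peri-infarct libraries for each of these 4 genes. Each contralateral library lay below each peri-infarct library for these genes, with 160.5, 213 and 184 CPM of Mag. Of 15 oligodendrocyte precursor genes 2 rose and 4 fell (median -0.16), the matrix genes Vcan (0.75 ± 0.12) and Matn4 (0.80 ± 0.16) rising and the transcription factor Olig1 falling (-0.33 ± 0.07). The falls numbered 1 without core replicate 2 and without peri-infarct replicate 1.

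Synaptic genes were lower in the core by similar amounts. Of 29 genes 25 fell and 0 rose (median -0.61, range -0.89 to -0.36). The vesicle protein Syp held 752, 789 and 788 CPM in the core, against 1186, 1170 and 1160 CPM in the peri-infarct zone and 1353, 1372 and 1321 CPM on the contralateral side (-0.61 ± 0.06, adjusted p = 0.000124). Snap25, of the fusion machinery, held 1265, 1327 and 1278 CPM in the core, against 1952, 1987 and 1929 CPM in the peri-infarct zone (-0.62 ± 0.07), and the postsynaptic scaffold Shank3 94.8, 93.5 and 95.4 CPM in the core, against 175, 192 and 151 CPM in the peri-infarct zone (-0.89 ± 0.09). These 3 genes had narrow groups that did not overlap, with fitted ratios of core to peri-infarct from 0.540 to 0.654. The libraries labelled core thus still held neuronal RNA. The NMDA receptor subunit Grin1 fell by 0.76 ± 0.12 on the log2 scale.

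Markers of cortical neuron classes moved less evenly. Of 18 excitatory markers 4 fell and 1 rose (median -0.37), a share of falls (22.2%) close to that of all genes (18.4%). Slc17a7, the vesicular glutamate transporter, held 614, 542 and 459 CPM in the core, against 821, 1093 and 827 CPM in the peri-infarct zone (-0.78 ± 0.16, adjusted p = 0.0033), Camk2a -0.62 ± 0.15 and Neurod6 -1.03 ± 0.28 on the log2 scale. Neurod6 lost its call without core replicate 1 (-1.02, adjusted p = 0.0544), without core replicate 2 (-0.84, adjusted p = 0.0692) and without peri-infarct replicate 1 (-0.82, adjusted p = 0.0553). Of 17 inhibitory interneuron markers 8 fell and 0 rose (median -0.50), with the peptide genes Sst at 35.2, 40.6 and 30.1 CPM in the core, against 65.6, 83.6 and 82.1 CPM in the peri-infarct zone (-1.14 ± 0.16) and Npy at -1.22 ± 0.23, and the receptor Erbb4 at -0.52 ± 0.10. The falls numbered 5 without core replicate 1 and 4 without core replicate 2. Of 19 tested immediate early genes 5 rose and 4 fell (median 0.10), shares close to those of all genes. Atf3, which follows injury, held 25.2, 35.1 and 24.1 CPM in the core, against 9.96, 9.09 and 11.7 CPM in the peri-infarct zone (1.44 ± 0.20), and Ier2 rose by 0.62 ± 0.15. Npas4, which follows neuronal activity, fell by 1.15 ± 0.20 on the log2 scale. Without core replicate 1 or 2 the rises numbered 3 and 2, and without peri-infarct replicate 2 the falls numbered 2.

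Of the 14 striatal projection neuron markers 14 fell, with a median of -1.98. The dopamine receptor Drd1 held 7.90, 3.48 and 4.43 CPM in the core, against 23.8, 25.7 and 23.9 CPM in the peri-infarct zone and 39.4, 19.3 and 22.7 CPM on the contralateral side (-2.23 ± 0.34, adjusted p = 0.00125). Ppp1r1b, the phosphatase inhibitor DARPP-32, held 111, 62.4 and 49.1 CPM in the core, against 246, 296 and 323 CPM in the peri-infarct zone (-1.97 ± 0.33), and the orphan receptor Gpr6 fell by 2.44 ± 0.44 on the log2 scale, a call lost when 8 wild-type libraries joined the fit (-2.40, adjusted p = 0.0502). Summed over the list, the core libraries of replicate 1, 2 and 3 held 388, 236 and 243 CPM, against 853, 1010 and 1028 CPM in the peri-infarct zone. The wild-type peri-infarct libraries held 254, 1075 and 276 CPM, so this sum was uneven between libraries of 1 group there. Without core replicate 2, 8 of the 14 fell. The striatum lies beneath the lit cortex, and the part of the depth of dissection in these values was not tested.

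Genes of the ciliated ventricle lining were lower in the core. Of 20 tested ependymal and motile cilium genes 18 fell and 0 rose (median -2.41). Dnah5, an axonemal dynein, held 5.27, 4.12 and 4.32 CPM in the core, against 12.3, 10.8 and 10.96 CPM in the peri-infarct zone (-1.33 ± 0.18, adjusted p = 0.000405), and Foxj1, the transcription factor of motile cilia, 9.79, 5.85 and 8.01 CPM in the core, against 23.6, 18.2 and 30.8 CPM in the peri-infarct zone (-1.63 ± 0.30). Dnah12 and Rsph4a, of the dynein arm and the radial spoke, fell by 2.56 ± 0.41 and 2.29 ± 0.36 on the log2 scale. The list summed to 61.5, 33.7 and 62.4 CPM in the core, against 162, 143 and 216 CPM in the peri-infarct zone, with 95.5, 185 and 97.6 CPM on the contralateral side.

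The 16 choroid plexus markers had the lowest median of any list, -3.31, with 0 of 16 called. Their sum was 259, 260 and 345 CPM in the core, against 1373, 292 and 4111 CPM in the peri-infarct libraries of replicate 1, 2 and 3, and contralateral replicate 2 held 4156 CPM. Ttr, the transthyretin that choroid plexus secretes, held 1.43, 2.38 and 17.2 CPM in the core, against 494, 9.27 and 2004 CPM in the peri-infarct zone (-6.91 ± 3.03, adjusted p = 0.116). Without contralateral replicate 1, 2 or 3, of the 16 markers 5, 12 and 2 fell, and 9 fell without peri-infarct replicate 2. Without peri-infarct replicate 3, which held the highest peri-infarct sum, 1 rose and 0 fell. The most significant members, Prlr (-3.30 ± 1.24), Kcne2 (-6.07 ± 2.39) and Clic6 (-3.81 ± 1.50), passed in some of these fits. Choroid plexus RNA was thus high in the same peri-infarct libraries that were highest for the cilium genes, and its part in the cilium result was not tested.

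Red blood cell genes showed a single library. The 4 tested had a median of 2.46, with 0 called, and summed to 3.38, 101.9 and 7.72 CPM in the core, against 0.985, 12.6 and 7.67 CPM in the peri-infarct zone. The globins Hba-a2, Hbb-bt and Hbb-bs differed by 2.89 ± 1.38, 2.62 ± 1.39 and 2.30 ± 1.33. Without core replicate 2, which set these values, the list's median was -0.28, Hba-a2 stood at -0.10 and Hbb-bs at -0.45.

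**Figure D4:**
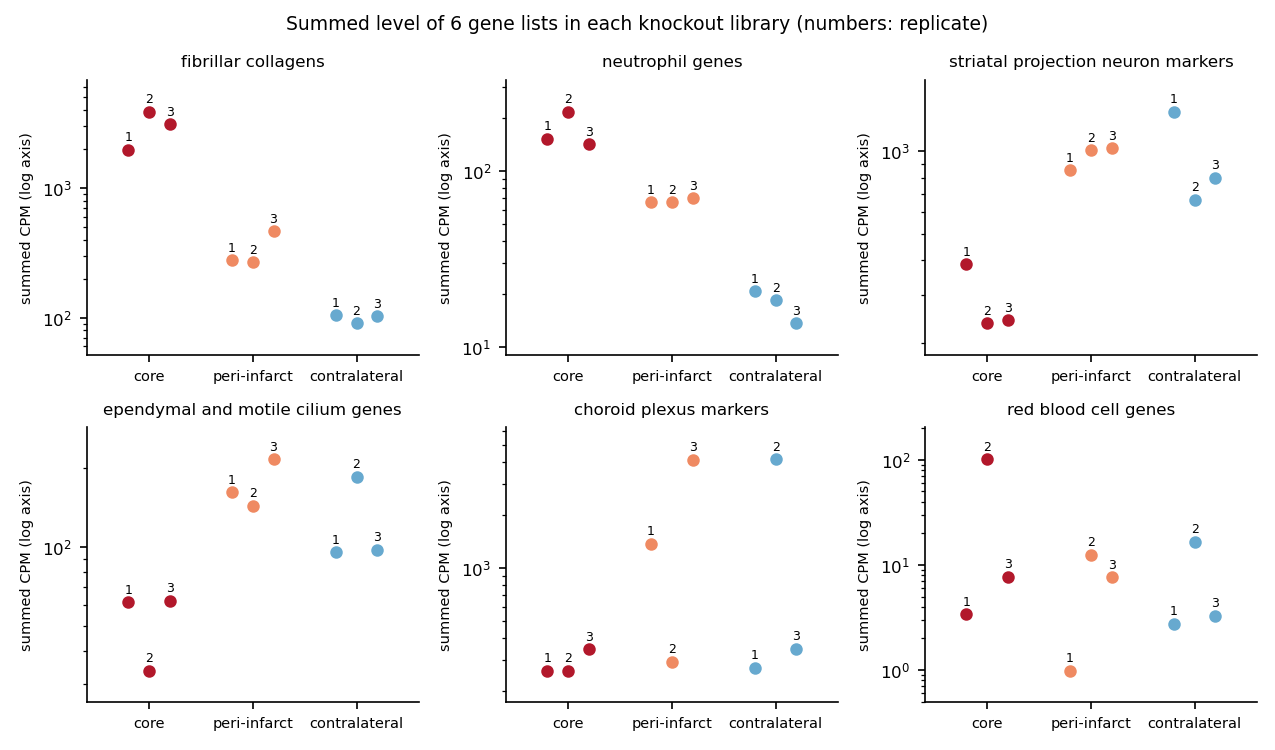
Points are the summed CPM (log axis) of the genes of 6 lists in each knockout library, with the replicate number beside each point. Fibrillar collagens, neutrophil genes, striatal markers and cilium genes separate the core from the peri-infarct libraries, while the choroid plexus sum is set by peri-infarct replicates 1 and 3 and contralateral replicate 2 and the red blood cell sum by core replicate 2.

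Whether the difference between core and peri-infarct tissue itself differed between knockout and wild type was tested as an interaction over all 18 libraries. By edgeR 0 of 15329 genes passed (0%), with 286 at an unadjusted p under 0.05, and DESeq2 also called 0 (439 unadjusted). Wild-type core replicate 3 stood apart from its group, with 15.5% of its counts in the 10 most abundant genes. Its synaptic genes summed to 163 CPM, against 12170 and 11420 CPM in wild-type core replicates 1 and 2. Its infiltrating and border macrophage genes summed to 4563 CPM, against 1021 and 1415 CPM. Without this library 0 of 15432 genes passed, with 1963 at an unadjusted p under 0.05 and a smallest adjusted p of 0.345. In that fit the differences of Arg1 (2.18 ± 1.26, knockout minus wild type), Ttc21a (-2.67 ± 0.92) and Cfap65 (-2.41 ± 0.74) had adjusted p-values of 0.478, 0.345 and 0.345. A p that misses the threshold does not show that the genotypes are alike.

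The 2 genotypes' own values are given side by side for some of the lists, with the wild-type fold changes from the 17 libraries. These leave out wild-type core replicate 3, and medians with it kept are not given. Disease-associated microglia genes summed to 141800 CPM in that library, against 35550 and 42520 CPM in wild-type core replicates 1 and 2. Cell cycle genes summed to 2000 CPM there, against 650.5 and 717 CPM, while chemokines summed to 582 CPM, against 712 and 692 CPM. The order of the genotypes below thus applies to the 17 libraries only. The median log2 fold change of core over peri-infarct was 2.09 in the knockout and 1.39 in the wild type for scar glycoproteins, 1.40 in the knockout and 0.73 in the wild type for disease-associated microglia genes, and 1.46 in the knockout and 0.96 in the wild type for cell cycle genes. It was 0.99 in the knockout and 0.10 in the wild type for interferon response genes, and -2.41 in the knockout and -0.11 in the wild type for cilium genes. That wild-type cilium median rests on 2 core libraries that were unlike. The cilium list summed to 31.4 and 126 CPM in wild-type core replicates 1 and 2, against 73.7, 115 and 69.4 CPM in the wild-type peri-infarct zone. Cholesterol synthesis genes had medians of -0.48 in the knockout and -0.14 in the wild type, and synaptic genes -0.61 in the knockout and -0.22 in the wild type. Set against these wild-type values, further lists also had medians further from 0 in the knockout. Among them were neutrophil genes (2.45 in the knockout and 1.38 in the wild type) and infiltrating and border macrophage genes (1.94 and 1.03). Chemokines (1.65 and 0.81) and oligodendrocyte and myelin genes (-0.71 and -0.35) were others. Some lists had medians that were close in both genotypes or further from 0 in the wild type. The median was 0.45 in the knockout and 0.64 in the wild type for the other collagens, 0.26 in the knockout and 0.47 in the wild type for meningeal markers, and 0.10 in the knockout and 0.29 in the wild type for immediate early genes. It was 1.20 in the knockout and 1.12 in the wild type for fibrillar collagens, and -0.50 in the knockout and -0.47 in the wild type for inhibitory interneuron markers. In each of these lists 0 genes passed the test of the difference. The wild-type peri-infarct libraries were uneven, with Col1a1 at 435, 460 and 1157 CPM in the wild-type core, against 185, 16.3 and 16.6 CPM in the wild-type peri-infarct zone. Across 15143 genes the knockout and wild-type log2 fold changes, which share no library, correlated with r = 0.634 (Pearson) and rho = 0.715 (Spearman), a description across genes that are not independent.

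The number of genes called depended on which libraries set the spread. With the knockout libraries alone it was 6120, and it was 4634 to 6311 when any 1 of the 9 was left out. With all 18 libraries in 1 fit 0 genes passed by edgeR and 2857 had an unadjusted p under 0.05, and without wild-type core replicate 3 edgeR called 6190, of which 5600 were the same genes in the same direction.

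**Figure D5:**
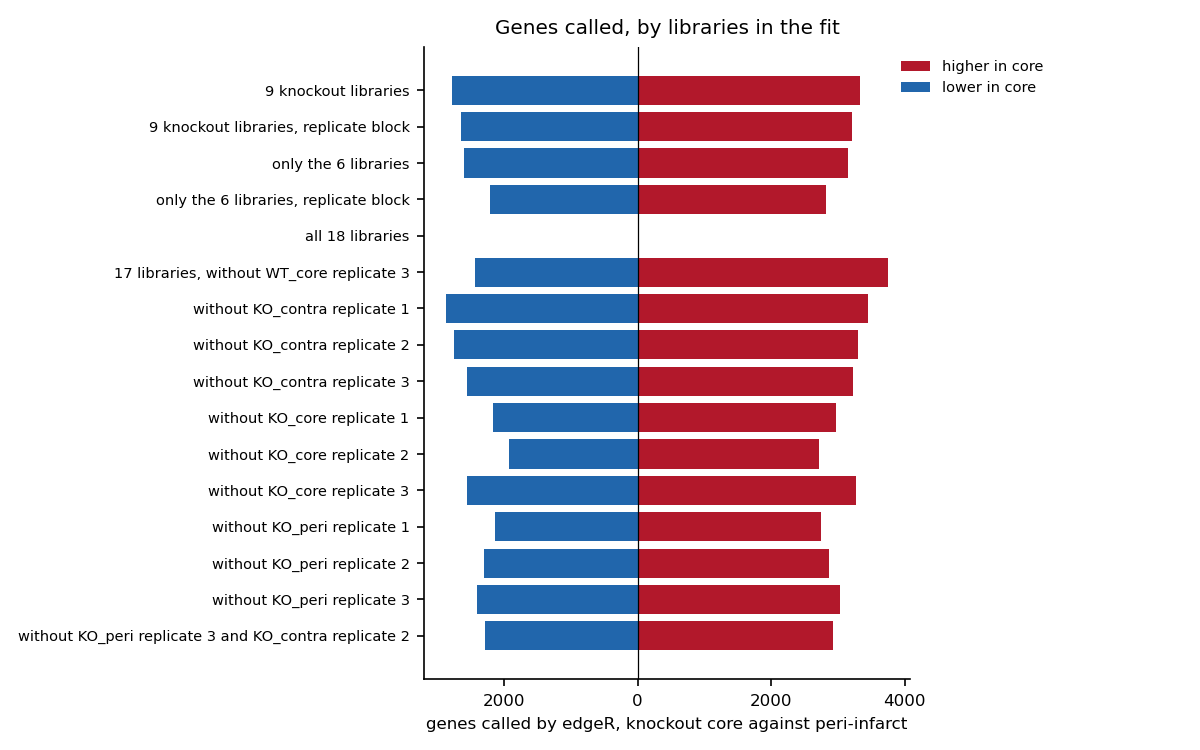
Bars give the number of genes that rose (red, to the right) or fell (blue, to the left) in the knockout core against the peri-infarct zone, called by edgeR, for each set of libraries in the fit. The bars keep a similar length whichever knockout library is left out (4634 to 6311 genes in all), and the fit of all 18 libraries has none.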

How the data were processed

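RNA-seq of polyA RNA was deposited as gene tables of 18 libraries. The authors' deposited expected counts hold values that are not whole in 3678 of 18922 genes (19.4%), which were rounded here, and the authors also deposited TPM per gene. The reads were processed with HISAT2 2.0.4, Bowtie2 and Subread on GRCm39 (mm39), per the submitters' processing notes. For the count table, neither the counting tool nor the use of strand was given in the sources used here. Low genes were filtered and libraries scaled by TMM, and the 9 knockout libraries were fitted with edgeR 4.0.16 (R 4.3.3) by its quasi-likelihood test with 6 residual degrees of freedom and Benjamini-Hochberg adjustment over 15143 genes. The contralateral libraries enter the filter, the scaling and the estimate of spread (15008 genes were tested with the 6 core and peri-infarct libraries alone). The fit was tested on simulated data of 15143 genes. It recovered 95% of 100 genes changed by a log2 fold of 1 and 100% of 100 changed by 2, with 11 false calls. Whether these rates hold in the knockout libraries, where 6120 genes were called and the spread differed between genes, was not tested. Alternatives used DESeq2 1.42.0, limma 3.58.1 (voom on counts, and log2(TPM + 1) and log2(TPM + 0.1) for genes at 0.5 TPM in at least 3 libraries), no filter, a replicate block, other sets of libraries, and each library left out. The fit without peri-infarct replicate 3 and contralateral replicate 2 was chosen after seeing the data.

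Named genes were Trem2, the 10 largest rises and falls described in the report, and the 3 tested members with the smallest p of each of 39 lists (736 entries, 30 genes in more than 1 list, 10 not in the table). The members and lists were chosen with earlier results of these data known. Promoter sequences are RefSeq's, of build GRCm38.p6, matched by symbol for 508 listed genes, and serve for their letters only. Some genes that this rule names are not reported here.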

Additional observations from a re-analysis of the deposited data

How the results depend on the processing

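Of 166 genes followed, 156 were called, and 146 of these kept the call in each alternative other than the fit of all 18 libraries, while 10 lost it in at least 1. Of 3484 alternative values 3482 kept their direction, the exceptions being Hba-a2 (-0.10) and Hbb-bs (-0.45) without core replicate 2, where leave-one-out values ran up to 3.80 and 2.90. The number of genes called ranged from 4634 to 6311 with 1 library left out and was 5208 without peri-infarct replicate 3 and contralateral replicate 2, a fit chosen after seeing the data. It was 5985 with no filter on low counts, 6234 by DESeq2, 6157 by limma-voom, 6635 to 6753 on TPM and 5751 with the 6 core and peri-infarct libraries alone. With all 18 libraries 0 genes and 0 lists passed, of 6120 genes and 23 lists with 50% or more of at least 5 tested members called one way, and the cause was not tested beyond the fit without wild-type core replicate 3 (6190 genes). C3 lost its call in that fit (-0.49, adjusted p = 0.294), Gpr6 missed the threshold (-2.40, adjusted p = 0.0502), and Cd4 did too (-1.13, adjusted p = 0.163). The labels do not give the animal behind a library, so the replicate numbers were not taken as pairs. Deviations of same-numbered core and peri-infarct libraries correlated at -0.079, -0.022 and 0.143, and core libraries 1, 2 and 3 correlated best with peri-infarct libraries 2, 3 and 1. With 3 libraries per group these correlations cannot show whether libraries of 1 number share an animal. With the replicate block 5845 genes were called, or 5038 in the 6 libraries alone, and Drc7 missed the threshold (-3.42, adjusted p = 0.0537). The block gave the genotype difference 0 calls, with 263 genes at an unadjusted p under 0.05. On TPM 3 or 4 pericyte and smooth muscle markers fell, against 1 on counts, and 7 or 8 excitatory markers, against 4, and DESeq2 called 11 choroid plexus markers lower. Changes of genes with few counts, such as Cxcl3 or Drc7, are limited by depth, and an exact test of 3 libraries against 3 cannot give a p under 0.1.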
